A study of Mus musculus with 6 samples.

Results

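The imprinted Dlk1-Dio3 locus of mouse chromosome 12 carries a long array of miRNA hairpins that opens with miR-379 and closes near miR-410. Its members were taken here as every sense entry, of either arm, that the count files locate in the 50 kb window around it. The first begins at chr12:109709065 and the last ends at chr12:109747949 (GRCm38, plus strand). This gave 47 entries of 1102, from 29 hairpins that span 38.9 kb. The entries comprise 18 5p arms and 29 3p arms. For 18 hairpins both arms are listed, and for the other 11 only the 3p arm is. The 6 libraries, 1 per sample, were made from hearts of male mice of 18 weeks and are named heart 1 to heart 6. All mice were wild type C57BL/6J, a standard inbred laboratory strain, and the labels name no treatment. The labels call the tissue whole heart, while the protocol describes the frozen apex of the ventricles.

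miRNAs are short RNAs cut by Drosha and Dicer from either arm of a hairpin precursor, and bases 2 to 8 of the mature strand, the seed, pair with target mRNAs. The hairpins of this array are found in placental mammals only. They are cut from long noncoding RNA transcribed from the maternally inherited chromosome, while the paternal copy is silent. They are best known from brain, placenta and the embryo, and deletion of the whole array in mice disturbs the adaptation of newborns and adult behaviour. In heart and skeletal muscle the locus is known to be controlled in part by the transcription factor MEF2A, and miR-410 and miR-495 are known to promote division of newborn cardiomyocytes.

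The annotation GENCODE M21 places 20 of the 47 entries inside the noncoding gene Mirg (chr12:109729764-109749460, plus strand). Of these, 9 overlap an exon of some Mirg transcript and 11 are intronic. The other 27, from miR-379 to miR-539, lie upstream of Mirg and outside any annotated host gene other than the miRNA itself. RefSeq (GRCm38.p6) held a mature sequence for 44 of the 47 entries. The 8 sequences on which the levels, arms and similarities below turn are printed 5′ to 3′, with the seed in capitals.
miR-379-5p: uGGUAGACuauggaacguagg
miR-411-5p: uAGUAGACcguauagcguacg
miR-379-3p: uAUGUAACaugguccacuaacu
miR-411-3p: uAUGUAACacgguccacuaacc
miR-300-3p: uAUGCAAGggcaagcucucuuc
miR-381-3p: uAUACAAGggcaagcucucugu
miR-541-5p: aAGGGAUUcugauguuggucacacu
miR-410-3p: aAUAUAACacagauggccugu

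The miR-379 and miR-411 hairpins are neighbours at the start of the array and resemble each other in both arms. Their 3p arms differ at U10C and U22C, counted from base 1 at the 5′ end with the miR-379 base first, and are the only members with RefSeq sequences that share a whole seed. That seed was found in 2 of 1679 mature mouse miRNAs in RefSeq, or 0.119%, which are these same arms. Their 5p arms differ at 7 of 21 bases, and G2A is the single change within the seed. miR-300-3p and miR-381-3p differ at 3 of 22 bases, with G4A in the seed. How the counting divided reads between such similar members is not given in the sources used here, so the values of miR-379-3p, miR-411-3p, miR-300-3p and miR-381-3p carry that uncertainty. Similarity was compared among the members only. RefSeq also lists arms outside the members with the seed of a member, such as miR-376c-5p with that of miR-376b-5p. The levels and arm shares of such members, miR-376b among them, may carry the same uncertainty.

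The cluster was a small part of the cardiac profile. Its members together gave 13486 reads over the 6 libraries, or 0.0451% ± 0.0102 (SD, n = 6) of the counts. In CPM, the count scaled to a library of 1000000, the summed level was 363 in heart 2, 383 in heart 6, 412 in heart 1, 433 in heart 3, 474 in heart 4 and 643 in heart 5. Heart 5 thus stood 1.77-fold above heart 2, and the other 5 hearts lay closer together. The library totals ran from 3966169 to 6007322 counts, with heart 5 the deepest and heart 4 the shallowest. A single read corresponds to between 0.166 and 0.252 CPM, and a count of 0 allows up to 0.499 to 0.756 CPM (3 counts). Reads carried no molecular identifiers, so such limits and the intervals below cover counting error only. The cardiac muscle markers miR-1a-3p, miR-133a-3p, miR-208a-3p and miR-499-5p were all present, at a summed 94127 CPM in heart 5, the lowest, and 94935 to 106440 CPM in the others.

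The level was concentrated in few members. The 5 members averaging 100 reads or more, miR-411-5p, miR-541-5p, miR-381-3p, miR-410-3p and miR-300-3p, made up 87.9% ± 0.634 of the cluster's reads. Of the 47 members, 13 (27.7%) averaged 10 reads or more, against 35.7% of the 976 mature miRNAs of the files. At an average of 100 reads the shares were 10.6% and 21.3%. An average of 1 read or more was reached by 34 of the 47 members, against 596 of the 976 miRNAs (61.1%). The 976 sum entries that share a mature name, while each member is a single entry. A read in every heart was found for 29 members (61.7%), against 49.2% of all mature miRNAs. The cluster therefore had relatively many low but recurrent entries.

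**Figure D1:**
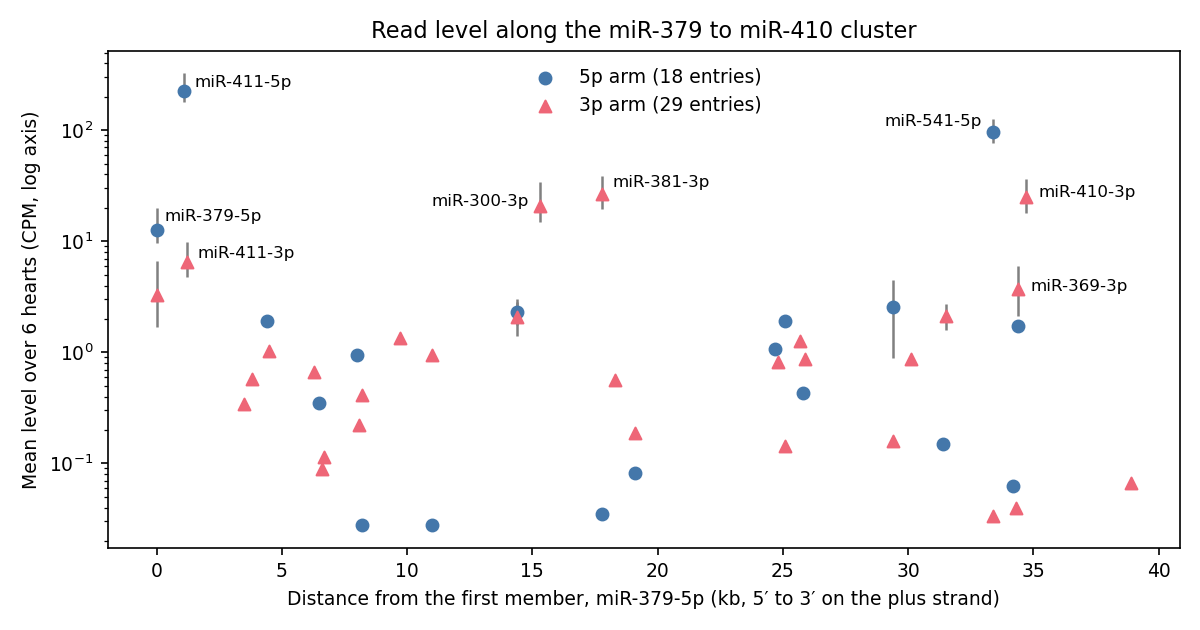
Mean level of each of the 47 entries over 6 hearts (CPM, log axis) against its distance in kb from the start of miR-379-5p, with circles for 5p arms and triangles for 3p arms. Vertical lines give the range over hearts for the 13 members averaging 10 reads or more. High and low entries lie side by side, and the most abundant members, miR-411-5p and miR-541-5p, sit 1.1 and 33.4 kb from the start.

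Along the array the reads came mainly from both ends, and there mainly from a few arms. The first 10 kb, with 17 entries from 11 hairpins, held 57.3% of the reads, and 6797 of its 7721 reads were miR-411-5p. The stretch from 10 to 20 kb held 12.03%, mostly from miR-300-3p and miR-381-3p. The stretch from 20 to 30 kb held 2.04%, with 275 reads over 9 entries and a single member, miR-154-5p, averaging 10 reads or more. The last stretch, which holds miR-541, miR-369 and miR-410, gave 28.7%. Of its 3868 reads, 2865 were miR-541-5p and 744 were miR-410-3p. Without these arms and miR-411-5p, miR-300-3p and miR-381-3p, the stretches held 924, 186, 275 and 259 reads in order. The first then remained highest, while the last no longer exceeded the stretch from 20 to 30 kb. The median reads per entry, with all arms kept, were 19, 22.5, 26 and 26. Hairpins that follow each other among the members differed widely. miR-541 gave 2866 reads in all, while miR-412, the next member hairpin, gave 3. miR-411 gave 6991 reads, and miR-323, the next member hairpin, gave 11. Hairpins whose reads are booked as antisense lie between both pairs and are described at the end. Ligation of adapters favours some RNA ends, so these are ratios of reads and not of molecules.

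miR-411-5p was the most abundant member. It lies at chr12:109710190-109710210, outside Mirg, and carries the capital seed shown above for the 5p strand. Its level was lowest in heart 2 at 179 CPM, had a median of 212 CPM and was highest in heart 5 at 326 CPM. The mean was 227 ± 52.1 CPM (SD, n = 6). It made up 50.3% ± 0.696 of the reads of the cluster, between 49.4% and 51.5% in every heart, so its share hardly moved while the cluster's level ranged 1.77-fold.

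miR-541-5p, in an intron of Mirg at chr12:109742422-109742446, followed with 2865 reads. It ranged from 77.1 CPM in heart 2 to 126 CPM in heart 5, with a median of 89.6 CPM and a mean of 96.6 ± 20.3 CPM. Heart 4 was close to heart 5, at 117 CPM. Within the cluster its share was 21.5% ± 2.04, highest in heart 4 at 24.7% and lowest in heart 1 at 19.4%. miR-411-5p was above miR-541-5p in 6 of 6 hearts, with 2.37 reads for each read of miR-541-5p (exact binomial 95% interval 2.27 to 2.48).

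The next 3 members were 3p arms of similar level. miR-381-3p, at chr12:109726870-109726891, ranged from 19.6 CPM in heart 6 to 38.5 CPM in heart 5, with a median of 24.4 and a mean of 26.9 ± 7.20 CPM. miR-410-3p, in an exon of Mirg at chr12:109743764-109743784, ranged from 17.8 CPM in heart 6 to 36.6 CPM in heart 5, with a median of 23.0 and a mean of 24.9 ± 6.81 CPM. miR-300-3p, at chr12:109724363-109724384, ranged from 14.99 CPM in heart 6 to 33.96 CPM in heart 5, with a median of 19.9 and a mean of 20.9 ± 6.81 CPM. All 3 were highest in heart 5 and lowest in heart 6. miR-381-3p exceeded miR-410-3p in 5 of 6 hearts, with a pooled ratio of 1.09 whose interval (0.981 to 1.2) includes equality, so their order is not settled. miR-410-3p exceeded miR-300-3p in 6 of 6 hearts (ratio 1.18, 1.06 to 1.32).

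Below these stood 8 members averaging between 10 and 100 reads. miR-379-5p, at chr12:109709065-109709085, ranged from 9.66 CPM in heart 1 to 19.8 CPM in heart 5, with a mean of 12.7 ± 3.65 CPM. The 3p arm of miR-411 reached 6.47 ± 1.90 CPM, miR-369-3p 3.72 ± 1.37, and miR-379-3p 3.30 ± 1.81. miR-154-5p, named in studies of cardiac fibrosis, reached 2.54 ± 1.41 CPM, miR-376b-5p 2.30 ± 0.494, miR-377-3p 2.15 ± 0.379 and miR-376b-3p 2.10 ± 0.635. From miR-369-3p downward the counts did not settle the order, since the interval of each ratio between neighbours includes equality and none held in more than 4 of 6 hearts.

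**Figure D2:**
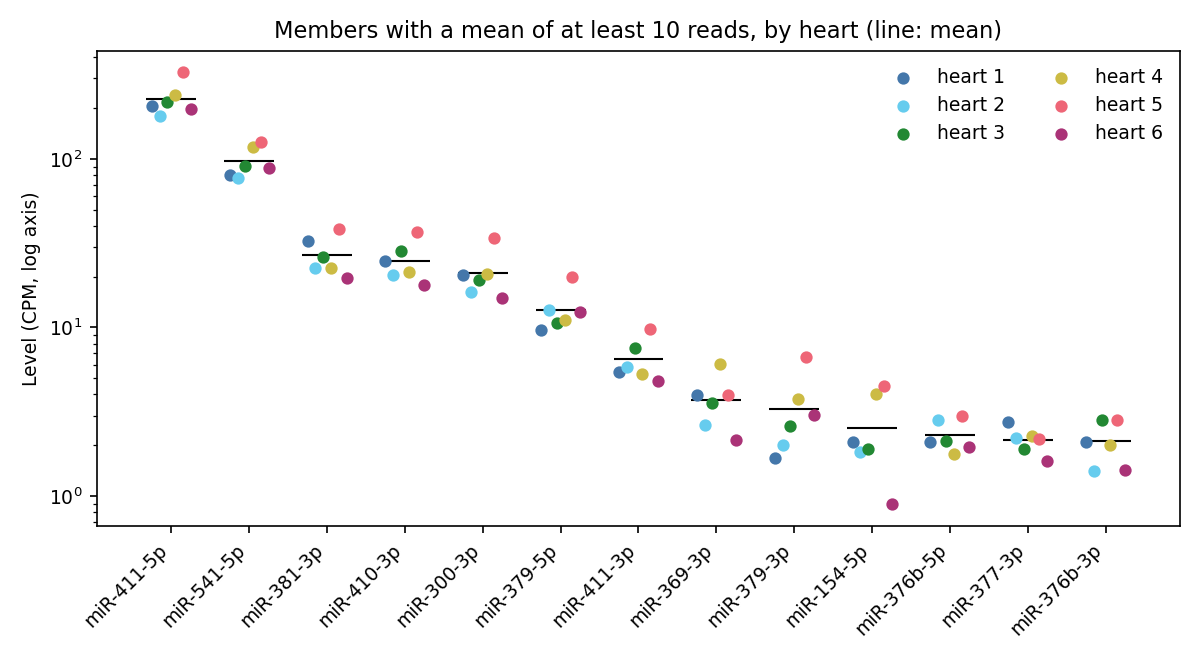
Level in CPM on a log axis of the 13 members averaging 10 reads or more, 1 coloured point per heart and a line at the mean. Heart 5 is the highest point for 10 of the 13, the exceptions being miR-369-3p, miR-377-3p and miR-376b-3p.

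The remaining 34 members were rare. The 21 with a mean of 1 to 10 reads had between 6 and 58 reads in all and mean levels of 0.189 to 1.92 CPM. They include miR-134-5p, which regulates the growth of dendritic spines in neurons, with 56 reads, miR-495-3p with 41, miR-382-5p with 32 and miR-494-3p with 19. The 13 with a mean under 1 read had 1 to 5 reads each and 30 in all. miR-543-5p, miR-667-5p, miR-381-5p, miR-541-3p and miR-412-3p had a single read, and miR-3072-3p, the last entry, had 2, both in heart 2. Some of the rare members still differed in level beyond counting error. Pooled over the hearts, miR-329-5p was at 1.96 CPM (exact Poisson 95% interval 1.49 to 2.54) and miR-494-3p at 0.643 CPM (0.387 to 1.00).

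Each tested hairpin of the cluster was compared between its arms with the edgeR quasi-likelihood test, fitted over all 214 hairpins with both arms listed and 10 reads or more on average, with the library as a block. A call needed a Benjamini-Hochberg adjusted p under 0.05 together with arms that differed 2-fold or more. Of 10 hairpins of the cluster tested, 5 were called for more 5p reads, 3 for more 3p reads and 2 for neither. Over all hairpins 48.6% were called for 5p, 40.7% for 3p and 89.3% for either, so the 8 calls of 10 lay near the background. The largest adjusted p among the 8 calls was 0.00022 (edgeR). This test largely pools the spread over hairpins. In an exact two-sided sign-flip permutation test over the 6 hearts, added after the data were examined, each of the 8 had an adjusted p of 0.0334, and 0.0312 is the smallest unadjusted p it can give.

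The 5p calls were miR-379, miR-411, miR-134, miR-154 and miR-541. Of the 2866 reads of miR-541, 2865 were 5p (99.97%, exact binomial 95% interval 99.8 to 99.999). miR-411 gave 97.2% ± 0.458 from the 5p arm, between 96.6% and 97.8% in the 6 hearts. Its neighbour miR-379, with the similar arms printed above, gave 80.2% ± 4.95, between 74.6% and 86.3%. The ranges of miR-411 and miR-379 do not overlap. Their 3p arms may share reads, and both shares depend on how the 194 and 101 3p reads were divided. The difference between these shares therefore carries that uncertainty. miR-134 gave 56 of 60 reads and miR-154 75 of 80 reads from the 5p arm.

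The 3p calls were miR-381, miR-377 and miR-369. miR-381 gave 807 of 808 reads from the 3p arm, and miR-377 63 of 67. miR-369 was the weakest call, with a 5p share of 30.2% ± 15.3 and 2.05-fold more 3p reads (log2 ratio 1.04 ± 0.278, SE, edgeR adjusted p = 0.00022, higher in 6 of 6 hearts). Its 5p share ran from 7.14% in heart 2 to 46.7% in heart 5, and without heart 1, 2 or 4 its log2 ratio was 0.97, 0.86 or 0.85, under the required fold. For miR-300 and miR-410 only the 3p arm is listed, so no ratio was computed.

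miR-329 and miR-376b were not called. miR-376b gave 69 reads from the 5p and 62 from the 3p arm, or 52.6% ± 8.53 from the 5p arm (log2 ratio 3p over 5p -0.15 ± 0.292, SE, edgeR adjusted p = 0.603), more 5p in 3 hearts, more 3p in 2 and equal in 1. miR-329 gave 64.02% ± 12.4 from the 5p arm, or 1.83-fold more 5p reads (edgeR adjusted p = 0.0143, DESeq2 adjusted p = 0.0572, higher in 5 of 6 hearts), under the required fold. Without heart 2 it was called, at a log2 ratio of -1.12. The 8 other hairpins with both arms listed averaged under 10 reads. When the minimum was lowered to an average of 1 read, 17 hairpins of the cluster were tested and 11 called, against 78.4% of 292 hairpins. The 3 added calls were miR-667 (28 of 29 reads 3p, edgeR adjusted p = 1.4e-06, more 3p in 6 of 6 hearts), miR-543 (13 of 14 reads 3p, edgeR adjusted p = 0.00308, more 3p in 6 of 6 hearts) and miR-666 (28 of 35 reads 5p, edgeR adjusted p = 0.00179, more 5p in 6 of 6 hearts).

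**Figure D3:**
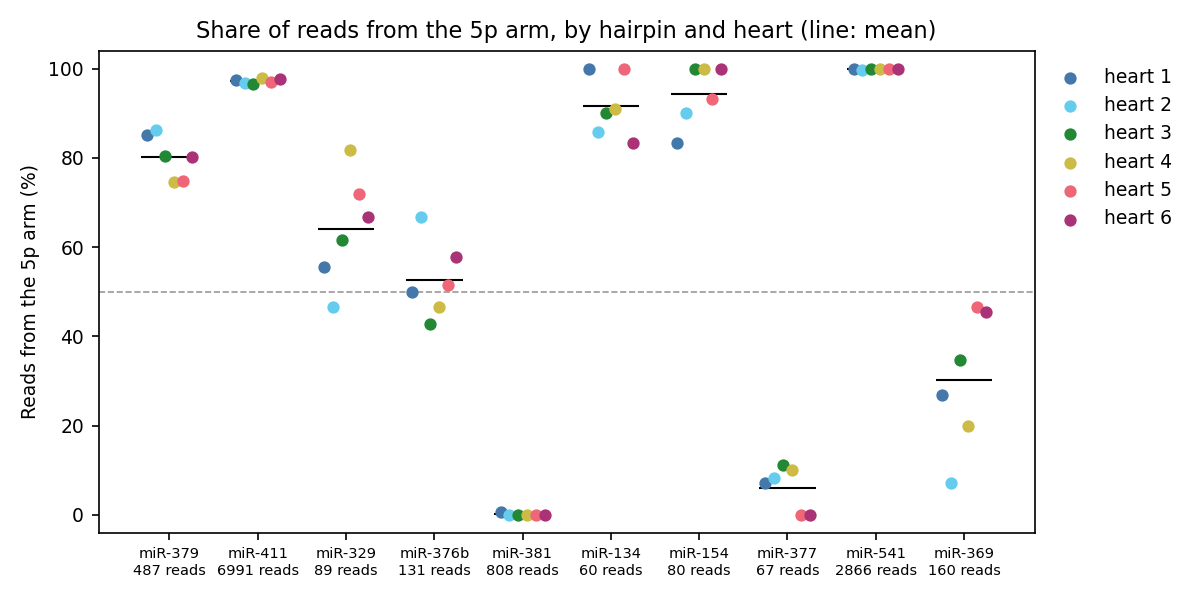
Percent of the reads of each tested hairpin that came from the 5p arm, in genomic order, with 1 point per heart, a line at the mean and the reads of both arms over 6 hearts under each name. miR-541 and miR-411 sit near 100%, miR-381 near 0%, and the points of miR-376b scatter around the dashed line at 50%.

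The cluster's reads as a whole were 77.6% ± 2.39 5p, in contrast to its list of entries with 18 5p arms of 47. This share was set by miR-411-5p and miR-541-5p. Without these leading members, 20.6% ± 2.58 of the remaining reads were 5p.

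The spread between hearts exceeded counting noise for most of the better-covered members. A chi-square test of the 6 counts against TMM-scaled library totals, adjusted over 348 mature miRNAs, called 9 of the 13 members averaging 10 reads or more, against 70.7% of all. All 5 of the leading members were called, against 88.9% at that depth, and so both shares lay near the background. miR-376b-5p, miR-376b-3p, miR-377-3p and miR-369-3p were not called, and had 62 to 107 reads each. At an average of 10 to 100 reads 4 of 8 members were called, against 43.6% of all. When 34 members averaging 1 read or more were tested, 10 were called, against 44.5% of all, with miR-329-5p (adjusted p = 0.0354) and miR-369-5p (adjusted p = 0.0172) added and miR-411-3p lost. The biological coefficient of variation (BCV), the spread that edgeR estimates beyond counting, had a median of 22.2% over the 5 leading members, against 15.3% over all miRNAs of that depth. Without heart 5 these medians were 15.8% and 14.5%. With all hearts it was 18.2% for miR-411-5p, 18.1% for miR-541-5p, 22.3% for miR-381-3p, 22.2% for miR-410-3p and 24.1% for miR-300-3p.

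Heart 5 stood highest in most members. A gap of heart 5 to all others large enough for Dixon's test was found for miR-379-5p and miR-300-3p, 2 of 13, against 5.17% of all miRNAs at that depth, and any heart stood apart in 12.4%. Of the 13 members, 10 had their highest CPM in heart 5, against 25.6% of all miRNAs at that depth. Among the 5 leading members it was 5, against 28.4%. After TMM scaling, which corrects for the composition of each library, it was 9 of 13 against 22.1%. Heart 5 was also the deepest library, and 2 of the 13 averaged 10 reads only with it counted. These were miR-154-5p, with 27 of its 75 reads in heart 5, and miR-376b-3p, with 17 of 62. The counts over the 13 members, and the median ratio that follows, therefore depend in part on heart 5 through the minimum itself. The ratio of heart 5 to the median of the other 5 hearts had a median of 1.60 over the 13 members and 0.984 over all miRNAs of that depth. It was 1.5 for miR-411-5p, 1.36 for miR-541-5p, 1.60 for miR-381-3p, 1.66 for miR-410-3p, 1.73 for miR-300-3p and 1.82 for miR-379-5p. It was lowest for miR-377-3p at 0.979 and highest for miR-379-3p at 2.50. Without heart 5, 4 of the 11 members that then averaged 10 reads or more varied beyond counting, namely miR-411-5p, miR-541-5p, miR-381-3p and miR-410-3p. The plain CV of miR-411-5p, the SD over the mean of its scaled CPM, fell from 20.02% to 6.72%, while that of miR-541-5p was 17.6% with and 13.7% without heart 5.

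Markers of other cell types were read in the same libraries. The cartilage markers miR-140-3p and miR-140-5p, 2 of 2 listed, summed to 2083 CPM in heart 5 and 690 to 904 CPM in the other hearts. The smooth muscle markers miR-143-3p and miR-145a-5p, 2 of 2, were at 113480 CPM in heart 5, above the 65604 to 102716 of the rest. The fibroblast and mesenchymal list, 4 of 4 and mostly miR-10b-5p, stood at 23118 CPM in heart 5, within the 18141 to 25110 of the others. Within that list miR-199a-3p was at 4900 CPM in heart 5 and 2563 to 3070 CPM in the others. The list as a whole was highest in heart 1, at 25110 CPM, so the rest of it together was not highest in heart 5. The neural list, 6 of 6 and mostly miR-128-3p, stood at 245 CPM in heart 5, within the 191 to 346 of the others, and miR-124-3p was at 0 in at least 1 heart. Its highest value was in heart 4, where the endocrine marker miR-375-3p was also highest, at 23.4 CPM against 0.420 to 2.16 CPM elsewhere. The leukocyte list, 4 of 4, was lowest in heart 5, at 2888 CPM against 3138 to 3685 CPM, as was the cardiac list given above. The endothelial list, 4 of 4, was at 89096 CPM in heart 5, within the 84301 to 97646 of the others. The erythroid list, 2 of 2, was at 3986 CPM in heart 5, within the 2176 to 5691 of the others. The part of these cells and of the depth of the libraries in the level of the cluster was not tested, and in bulk tissue more cells of a type cannot be told apart from more RNA per cell.

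The rest of the imprinted locus lies upstream (chr12:109563710-109618326), with 23 sense entries from 13 hairpins that include miR-127, miR-434, miR-136 and miR-431. Of these entries 10 (43.5%) averaged 10 reads or more, and 9 of the 10 were highest in heart 5. Their summed level was 1308 to 1590 CPM in 5 hearts and 2408 CPM in heart 5. Most of it was miR-127-3p, at a mean of 1413 CPM against 1583 CPM for the sum. The cluster gave 28.7 ± 1.84 reads per 100 reads of these upstream miRNAs, between 26.7 in heart 5 and 31.3 in heart 4. Over the 6 hearts the ratio thus moved less than either level, but much of that contrast lay in heart 5. Without heart 5 the ratio had a mean of 29.1 and ran from 27.3 to 31.3. The cluster then ran from 363 to 474 CPM and the upstream sum from 1308 to 1590 CPM. The ratio mostly compares a few arms, miR-411-5p and miR-541-5p (50.3% and 21.5% of the cluster) with miR-127-3p.

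**Figure D4:**
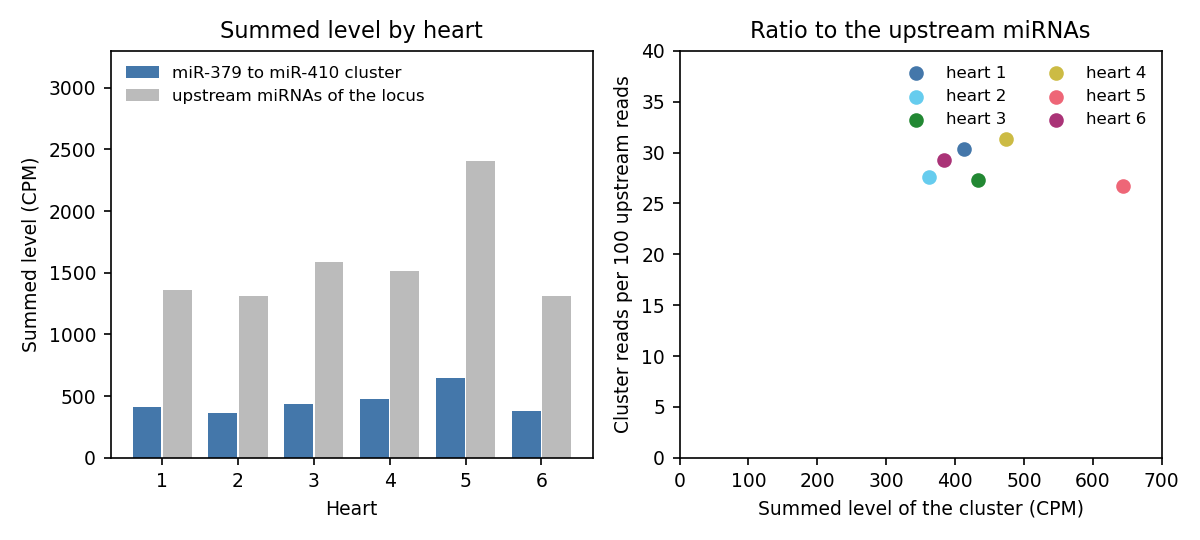
Left, summed CPM in each heart of the 47 members and of the 23 upstream entries of the locus, with bars from 0. Right, cluster reads per 100 upstream reads against the summed level of the cluster, 1 point per heart, where the ratio stays between 26.7 and 31.3 while heart 5 lies apart in level.

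The 5 leading members form 10 pairs. On log2 scaled CPM their median Pearson r over the 6 hearts was 0.80, from 0.21 to 0.93, against a median of -0.00 over all 21482 pairs of miRNAs from different hairpins at that depth. The median Spearman rho of the 10 pairs was 0.46, and over the 75 pairs of members averaging 10 reads or more the median r was 0.46. An exact permutation test over the 6 hearts gave 5 of the 10 pairs a two-sided p under 0.05, against 7.51% of all pairs. After adjustment over all pairs 0 passed, in the cluster and in the files as a whole (0.0%), and the smallest adjusted p was 0.585. With 720 orders of 6 hearts the smallest p possible is 0.00139, too large for any single pair to pass. The pairs share libraries and members, so their median carries no p. The pair of miR-300-3p and miR-381-3p, with r = 0.84, consists of the similar arms named above, and how reads were divided between them is not known.

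Leaving out heart 5 changed the picture. The median r of the 10 pairs fell to 0.25, with a range from -0.67 to 0.80. The pair of miR-411-5p and miR-541-5p held best, with r = 0.87 (exact permutation p = 0.00556, adjusted p = 0.585) and rho = 0.89 (exact permutation p = 0.0333, adjusted p = 0.673), r = 0.80 without heart 5 and r = 0.91 after leaving out hearts 2 and 5, where miR-411-5p lay most distant from its median. miR-381-3p with miR-410-3p had r = 0.89 (exact permutation p = 0.0125, adjusted p = 0.609) and rho = 0.94 (exact permutation p = 0.0167, adjusted p = 0.649). Its r was 0.74 without heart 5 and 0.97 without hearts 1 and 5. In contrast, miR-381-3p and miR-541-5p had r = 0.21 (exact permutation p = 0.704, adjusted p = 0.95) and rho = -0.03 (exact permutation p = 1), and r = -0.52 without hearts 1 and 5. In scaled CPM, miR-541-5p was at 110 in heart 4, near its highest level of 122 in heart 5. For miR-411-5p heart 4 also came second, but at 224 it lay near heart 3 at 216 and well below heart 5 at 315. Both miR-381-3p and miR-410-3p were likewise highest in heart 5, but in heart 4 they were lower than in any heart except heart 6.

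**Figure D5:**
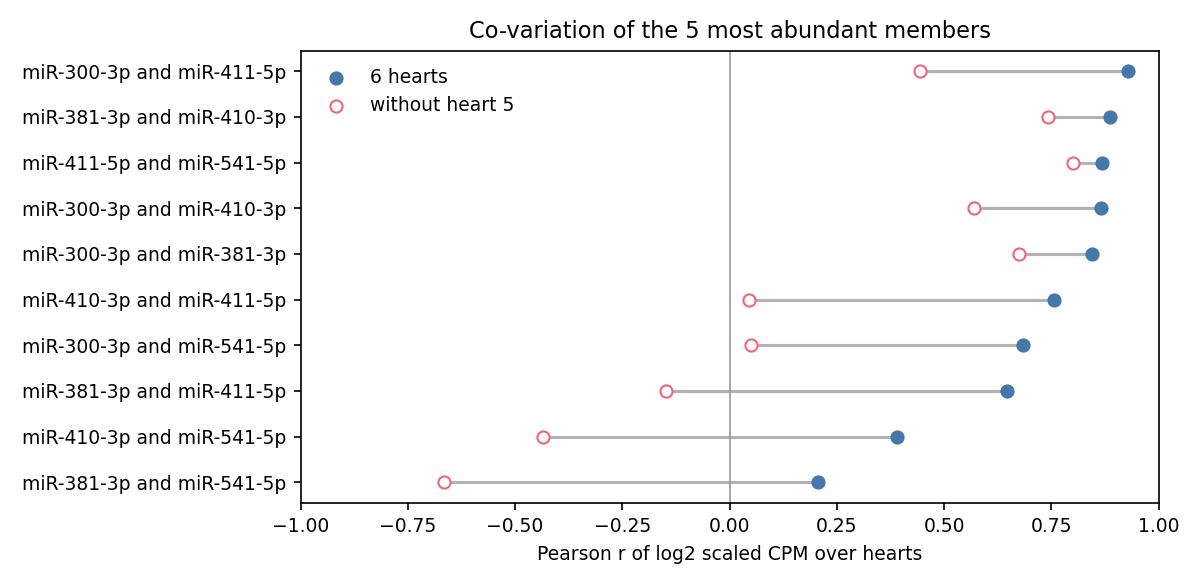
Pearson r of log2 scaled CPM for the 10 pairs of the 5 leading members, filled for 6 hearts and open without heart 5. All 10 filled points lie above 0, and 3 open points lie below it.

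Among 203 other miRNAs averaging 100 reads or more, those whose level over the 6 hearts was most like the summed level of the cluster were first the miRNAs of the upstream part of the locus. miR-136-3p had r = 0.97, miR-127-3p r = 0.95 and miR-434-3p r = 0.94, and without heart 5 these were 0.69, 0.45 and 0.37. They were followed by miR-199b-3p from chromosome 2 (r = 0.92, and 0.15 without heart 5) and miR-676-5p from the X chromosome (r = 0.92, and 0.85 without heart 5). miR-199b-3p has the sequence of miR-199a-3p, so its reads cannot be assigned to a locus. These are descriptions over the same 6 libraries and carry no p. As a single pair, miR-127-3p, the leading miRNA of the locus, and miR-411-5p had r = 0.95 (exact permutation p = 0.0319, adjusted p = 0.628) and rho = 0.89 (exact permutation p = 0.0333, adjusted p = 0.673), r = 0.45 without heart 5 and r = 0.64 without hearts 3 and 5.

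The rule by sense entries leaves out 4 hairpins of the same array. Their reads are booked in the files as antisense to hairpins named on the minus strand, at positions where RefSeq lists miR-299a, miR-380, miR-376a and miR-409 on the plus strand. The 8 entries held 425 reads, equal to 3.15% of the members' reads. miR-409-3p (chr12:109743203-109743225) was the highest at 250 reads and 8.36 ± 1.95 CPM, between miR-379-5p and miR-411-3p in level. It had 67 reads in heart 5, and elsewhere 29 to 47.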

How the data were processed

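Small RNA libraries of 6 hearts were made with a TruSeq small RNA kit from Trizol-extracted total RNA, per the labels' protocols. The authors deposited whole-number read counts per mature arm and locus, not normalized, and per the file headers each entry has a name, a location and a count. The submitters' processing notes name GRCm38, edgeR and DESeq without roles. The aligner, the counter and the treatment of reads with several matches are not stated in the sources used here. The library total is the sum of 1026 sense entries and of 38 of 76 antisense entries that lie on a hairpin annotated on the opposite strand.

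Entries of one mature name were summed, which gave 976 miRNAs. Names follow RefSeq where at least 15 bases overlapped. Arms were compared with edgeR 4.0.16 (quasi-likelihood, library as a block), with DESeq2 1.42.0 as an alternative. TMM scaling preceded the chi-square test, BCV and correlations (log2, prior count 1). Steps were tested on simulated data: over 214 hairpins the arm test called 100.0% of 50 with a true log2 ratio of 2 and 0.0% of 114 with none. All hairpins were simulated with the same spread, and no true log2 ratio lay between 0 and 2 in size. Calls near the 2-fold limit were therefore not covered. Over 348 miRNAs the chi-square test called 82.5% of 200 with a BCV of 30% and 2.7% of 148 with counting noise alone.

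The members, lists and tests were chosen with earlier results of these data known. Members averaging 100 reads are given with their range over hearts and those averaging 10 by mean and SD. Also named are hairpins called for an arm, members with a heart apart from the rest, and the 5 most similar outside miRNAs. The labels number the samples and do not say that each is a separate animal, so p-values measure the spread between these samples, which may be in part technical. The samples form 1 group, and no contrast between groups was made.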

Additional observations from a re-analysis of the deposited data

Results flagged for a closer look

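A heart was set apart where its gap to the nearest other, divided by the range of the 6, exceeded the 95% limit of Dixon's test, which chance alone gives in about 1 in 20 groups. Among the 13 members averaging 10 reads or more this held for miR-379-5p, at 19.81 CPM in heart 5 (ratio 0.702), and miR-300-3p, at 33.96 CPM in heart 5 (ratio 0.7). Over 348 miRNAs it held for 43 (12.4%), in 18 of them (5.17%) for heart 5. The summed upstream miRNAs of the locus were also apart in heart 5, at 0.2408% of counts.

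Reads in entries booked as antisense lay above the limit that a count of 0 allows for miR-409-3p (250 reads over 6 hearts), miR-299a-3p (62), miR-299a-5p (41), miR-380-3p (33), miR-376a-3p (19), miR-376a-5p (13) and miR-409-5p (6). The comparisons above do not use them as members.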

How the results depend on the processing

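The cluster's share of counts stayed within 1 SD of 0.0451% under other library totals (0.0449% to 0.0519%) and between 0.0413% and 0.0469% when each heart was left out. The number of members detected depends on the minimum, being 34 for an average of 1 read, 5 for 100, and 11 to 16 for 10 when each heart was left out. Arm calls numbered 8 with DESeq2, 9 without the fold requirement, 11 for an average of 1 read, 4 for 50, where fewer hairpins are tested, and 6 to 8 when a heart was left out. The log2 ratio of miR-376b, not called, ran from -0.26 to 0.00235 with a heart left out, the highest value being without heart 2. The number of members that varied beyond counting ran from 4, without heart 5, to 10. The median BCV of the 5 leading members ran from 15.8%, without heart 5, to 24.1%. The median r of the leading members was 0.84 on raw totals, 0.46 with Spearman's rho, 0.46 over members averaging 10 reads and 0.68 over those averaging 50. It ran from 0.25 without heart 5 to 0.86. The level of the 5 leading members moved by less than 1 SD with TMM scaling. Arms were compared within each library. No paired analysis was possible because there is 1 group, so no pairing of samples between groups exists. Depth limits the 34 members averaging under 10 reads, of which 13 averaged under 1 read and entered no test between hearts.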

Other observations

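The locations in the files start at the RefSeq 5′ end for 39 of the 44 members with a RefSeq sequence. The start lies 6 bases downstream for miR-379-3p, 4 for miR-382-3p and 3 for miR-485-3p, and 5 bases upstream for miR-381-5p and 1 for miR-668-3p. Where the counted reads begin is not given in the sources used here, and the seeds of these 5 entries were read from RefSeq alone. All 5 members averaging 100 reads or more start at the RefSeq base.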
